A study of Mus musculus with 12 samples.

Results

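The mitosis genes examined here were 36 genes that act between entry into mitosis and the final separation of daughter cells. They were chosen by gene symbol from a list drawn up with earlier results of these data known. Counts of members set beside all genes are therefore descriptions. Each gene was found on 1 row of the 77175 rows of the count table. Messenger RNA was sequenced in 12 libraries from melanomas grown in NOD-SCID mice, with 3 libraries in each of 4 groups. OVA T cells were of genotype C57BL/6J-OT-I and were taken with CD8 antibody beads from tumors of the line B16-F10-OVA; B16-F10 T cells had the same genotype and isolation but came from B16-F10 tumors. OVA tumor cells carried the vectors pLV[Exp]-Puro-EF1A>GCaMP6s and pLV[Exp]-Neo-EF1A>{ovalbumin} and were sorted by flow cytometry for GCaMP6s, a calcium indicator that fluoresces. B16-F10 tumor cells carried the GCaMP6s vector alone and were sorted the same way. Every mouse had received OT-1 CD8+ T cells, activated beforehand with anti-CD3/anti-CD28 Dynabeads, and was killed 2 days later. The OT-I receptor recognises a peptide of ovalbumin. The OVA line also differed from B16-F10 by its second vector. Antigen, vector and other differences between the lines therefore cannot be told apart. "OVA effect" below names the difference between the 2 labels within a fraction. NOD-SCID hosts lack B and T lymphocytes of their own but keep myeloid and stromal cells. Whether a group's 3 libraries stem from different mice is not stated, so p-values measure a spread between libraries that could be technical.

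Cells enter mitosis when cyclin B and CDK1 become active, and they leave it when the anaphase-promoting complex (APC/C) destroys cyclin B and securin. Most genes of this process are switched on together in G2 by the MuvB complex with B-MYB and FOXM1, through promoter elements called the CHR and, with NF-Y, the CCAAT box. Their messenger RNAs are therefore widely used to mark dividing cells, both in tumors and in T cells expanding after activation.

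Promoter windows of 300 bases, 250 before to 50 after the gene start, were found for 31 of the 36 genes in a RefSeq table (GRCm38.p6), with no entry for Aurkb, Ccna2, Foxm1, Kif20a and Tpx2. The letters CCAAT, on either strand, were in 24 of the 31 (77.4%), against 41.1% of 27025 genes with such a window. The core letters of the CHR, TTTGAA on either strand, were in 23 (74.2%), against 20.2% of all genes. Both motifs were in 20 (64.5%), against 7.97% of all genes. A match describes the letters and does not show binding. 5 promoters are shown as examples of where the motifs lie, the first 5 with both motifs in the order of a list of 10 anchor genes whose values are given per library; Cenpf, a further anchor gene with both motifs, is not shown. They are Mki67 at chr7:135716330-135716629 (minus strand), Top2a at chr11:99024140-99024439 (minus strand), Cdk1 at chr10:69352863-69353162 (minus strand), Plk1 at chr7:122159185-122159484 (plus strand) and Cdc20 at chr4:118437294-118437593 (minus strand). Each is written along the gene's own strand, 5′ to 3′, with the letters CCAAT and TTTGAA, or the same read on the other strand (ATTGG for the first and TTCAAA for the second), in capitals. No motif overlapped another in these 5 windows.
Mki67: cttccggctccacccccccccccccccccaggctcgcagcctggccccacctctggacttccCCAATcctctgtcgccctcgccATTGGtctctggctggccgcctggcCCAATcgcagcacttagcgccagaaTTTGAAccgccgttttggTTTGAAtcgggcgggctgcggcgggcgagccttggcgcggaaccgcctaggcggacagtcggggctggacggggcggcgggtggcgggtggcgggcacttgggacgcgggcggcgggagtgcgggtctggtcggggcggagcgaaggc
Top2a: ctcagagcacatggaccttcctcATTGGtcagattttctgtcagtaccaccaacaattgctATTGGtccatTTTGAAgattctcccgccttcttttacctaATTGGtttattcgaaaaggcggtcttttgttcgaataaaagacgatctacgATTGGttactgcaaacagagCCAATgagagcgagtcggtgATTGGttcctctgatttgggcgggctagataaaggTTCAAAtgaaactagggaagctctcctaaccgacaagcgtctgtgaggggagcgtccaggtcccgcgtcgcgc
Cdk1: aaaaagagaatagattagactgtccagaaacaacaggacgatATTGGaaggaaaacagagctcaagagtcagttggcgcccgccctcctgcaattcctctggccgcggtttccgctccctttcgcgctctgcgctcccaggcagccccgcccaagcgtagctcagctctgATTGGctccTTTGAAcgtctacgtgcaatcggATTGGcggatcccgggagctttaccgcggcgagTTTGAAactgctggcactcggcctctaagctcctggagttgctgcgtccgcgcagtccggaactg
Plk1: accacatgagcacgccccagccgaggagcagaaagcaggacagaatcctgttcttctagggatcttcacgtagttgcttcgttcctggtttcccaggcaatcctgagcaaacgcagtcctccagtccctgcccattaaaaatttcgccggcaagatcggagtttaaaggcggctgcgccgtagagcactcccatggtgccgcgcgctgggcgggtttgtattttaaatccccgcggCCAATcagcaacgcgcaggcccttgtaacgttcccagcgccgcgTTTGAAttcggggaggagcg
Cdc20: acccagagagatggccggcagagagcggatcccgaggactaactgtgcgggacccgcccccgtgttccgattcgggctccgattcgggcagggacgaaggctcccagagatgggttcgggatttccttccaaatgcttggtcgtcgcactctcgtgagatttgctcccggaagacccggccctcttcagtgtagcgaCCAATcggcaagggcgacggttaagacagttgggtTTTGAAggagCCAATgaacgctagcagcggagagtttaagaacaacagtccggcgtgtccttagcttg

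Library totals ran from 15494683 to 33263730 counts assigned to genes. Levels are given as CPM (a gene's count relative to its library's total, scaled by TMM over the 12 libraries), and changes as log2 fold changes from edgeR's quasi-likelihood test, called at a Benjamini-Hochberg adjusted p under 0.05 over all genes tested. The fractions were mixed. Summed over 20 T cell markers, OVA T cells had 1367 CPM, B16-F10 T cells 1379 CPM, OVA tumor cells 180.1 CPM and B16-F10 tumor cells 6.02 CPM. Over 12 endothelial markers the same groups had 11127, 11481, 4482 and 293 CPM. Cd3e and Cd8a, which define CD8+ T cells, were present in both T cell groups, but the endothelial sum was above the T cell sum there, so "T cells" names the label and not a pure population. Pmel and Dct, pigment genes that mark melanoma cells, averaged 22.1 and 42.0 CPM in OVA T cells, and 1919 and 2627 CPM in OVA tumor cells.

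The 36 genes were detected in every library, so that all of them were tested in every comparison. Their summed level was 1406 ± 7.83 CPM in OVA T cells, 1689 ± 13.7 in B16-F10 T cells, 1992 ± 7.55 in OVA tumor cells and 2558 ± 13.6 in B16-F10 tumor cells (SD, n = 3 each). Under TMM scaling, 31 of the 36 genes had their highest group mean in B16-F10 tumor cells. Of the rest, 4 were highest in OVA tumor cells (Ccna2, Cdc20, Ndc80 and Plk1) and 1 in B16-F10 T cells (Cenpa). With libraries scaled to 12 melanoma markers, 34 of the 36 were higher in OVA than in B16-F10 tumor cells. The highest and lowest groups and the order given below were not counted over all genes. OVA T cells had the lowest mean for 34 genes, the exceptions being Nusap1, lowest in OVA tumor cells, and Cenpa, lowest in B16-F10 tumor cells. In these bulk libraries, fewer dividing cells and less RNA per dividing cell cannot be told apart. The order from B16-F10 tumor cells down through OVA tumor cells and B16-F10 T cells to OVA T cells held for 23 genes, and 7 more had B16-F10 T cells above OVA tumor cells. Libraries of a group lay close together, with a median coefficient of variation of 3.09% over the genes and groups (0.216% to 12.8%).

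**Figure D1:**
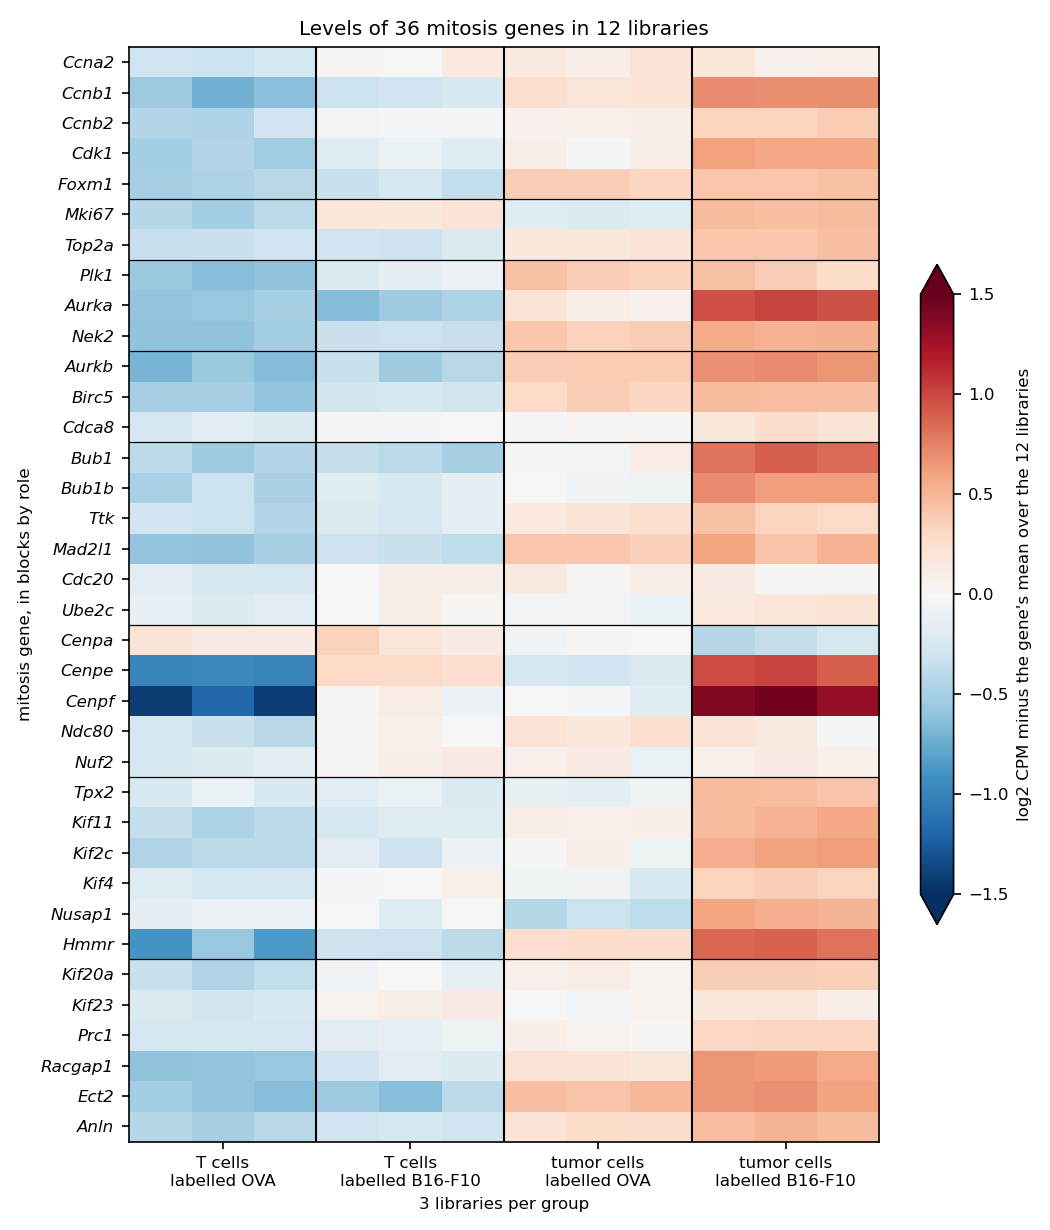
Each column is a library and each row a mitosis gene, in blocks by role; the colour is log2 CPM minus the gene's mean over the 12 libraries. The 3 libraries of a group look alike, and 34 of 36 rows have their lowest group mean in OVA T cells with TMM scaling.

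In OVA tumor cells, 30 of the 36 genes were lower than in B16-F10 tumor cells and 1, Cenpa, was higher, under TMM scaling. Of all 17418 genes tested in that comparison, 37.4% were lower and 42% higher. The median log2 change of the 36 was -0.27, beside 0.0417 for all genes. The direction depends on what is held constant: with libraries scaled to 12 melanoma markers, all genes shifted up by 1.06, 34 of the 36 were higher and 2, Cenpf and Cenpe, were lower, and the median of the 36 became 0.79. The distance of that median below the median of all genes was -0.32 with TMM and -0.31 with marker scaling. Scaling shifts all genes nearly alike, so this distance could hardly change and its steadiness tests nothing. It was -0.56 without a filter, -0.28 with a filter at 1 CPM in 3 libraries and -0.37 with all 12 libraries in the fit. Directions below are those of TMM scaling. Markers of cell types also moved with the label. The 12 melanoma markers, of which 11 were lower and 1 higher, had log2 changes from -2.09 to 0.66. They summed to 9961 to 9985 CPM in OVA tumor cells, against 20644 to 20824 CPM in B16-F10 tumor cells. Fewer melanoma cells and lower marker levels per melanoma cell cannot be told apart here. Endothelial markers summed to 4452 to 4524 CPM against 292 to 295 CPM in the same 2 groups, and 18 macrophage markers to 3405 to 3439 CPM against 470.0 to 476 CPM. The 14 fibroblast markers summed to 2593 to 2612 CPM against 200 to 208 CPM, with 13 higher and 1 lower. Neutrophil markers summed to 261 to 266 CPM against 1.02 to 1.53 CPM, with 9 of 9 tested higher. The 20 T cell markers summed to 174 to 185 CPM against 5.34 to 6.41 CPM, with Cldn5 and Emcn of the endothelial list and Cd2, Cd3e, Cd6, Skap1, Trac and Trbc2 at 0 counts in B16-F10 tumor cells. The part of these cells in the mitosis gene changes was not tested.

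Mki67, whose protein coats mitotic chromosomes and is the common stain for proliferation, had 130.3, 128 and 130.5 CPM in OVA tumor cells, against 205, 202 and 205 CPM in B16-F10 tumor cells. The 2 groups did not overlap, and the log2 change was -0.66 (SE 0.0191, edgeR adjusted p = 2.84e-19); it was 0.40 with melanoma marker scaling. Top2a, the topoisomerase that untangles sister chromatids, had 286, 285 and 291 CPM against 341, 336 and 347 CPM in the same groups, a log2 change of -0.26 (SE 0.0170). Among the 5 genes of the cyclin and CDK1 group, 4 fell and Ccna2 did not pass the test. Ccnb1, the cyclin that partners CDK1, had 57.8, 55.6 and 56.3 CPM in OVA tumor cells and 79.7, 79.3 and 78.9 CPM in B16-F10 tumor cells, and Cdk1 itself had 89.4, 82.7 and 88.7 CPM and 128, 124 and 125 CPM. Their log2 changes were -0.49 (SE 0.0297) and -0.53 (SE 0.0270), and no library of one group reached the range of the other. Foxm1, the transcription factor of the G2 programme, moved little, with 99.6, 99.5 and 96.4 CPM against 102, 102 and 104 CPM and a log2 change of -0.0672 (SE 0.0244, edgeR adjusted p = 0.0155); this call was lost with DESeq2, median-ratio size factors and a filter at 1 CPM in 3 libraries.

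The centromere and kinetochore genes, which join chromosomes to spindle microtubules, held both the largest falls and the only rise among the 36. Cenpf, a large coiled-coil protein of the outer kinetochore, had 26.2, 25.8 and 23.0 CPM in OVA tumor cells and 68.1, 71.3 and 65.3 CPM in B16-F10 tumor cells, a log2 change of -1.46 (SE 0.0465, edgeR adjusted p = 1.91e-18). Cenpe, the kinesin that carries chromosomes to the spindle equator, had 24.6, 24.1 and 25.4 CPM and 58.3, 59.8 and 55.1 CPM in those groups, a log2 change of -1.23 (SE 0.0426, edgeR adjusted p = 9.11e-18). These 2 were the only members that passed a test against a change of 2-fold, which 4.58% of all genes passed downwards. Cenpa, the histone H3 variant that marks centromeres, went the other way, with 49.6, 52.4 and 51.5 CPM against 38.5, 40.3 and 42.9 CPM and a log2 change of 0.32 (SE 0.0414, edgeR adjusted p = 2.06e-07). Ndc80 and Nuf2, partners in the complex that grips microtubules, did not pass the test, at log2 changes of 0.0860 (SE 0.0614) and -0.0647 (SE 0.0550). The Ndc80 libraries held 19.4, 18.8 and 19.8 CPM in OVA tumor cells, against 19.4, 18.5 and 16.4 CPM in B16-F10 tumor cells, and the groups overlapped.

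All 6 spindle genes fell, with a median of -0.58. The largest fall among them was that of Nusap1, a microtubule bundling protein, which had 17.7, 19.0 and 18.3 CPM in OVA tumor cells and 35.9, 34.6 and 33.8 CPM in B16-F10 tumor cells, a log2 change of -0.94 (SE 0.0487, edgeR adjusted p = 2.28e-14). Tpx2, which activates Aurora A on the spindle, and Hmmr, which links spindle poles to microtubules, changed on the log2 scale by -0.57 (SE 0.0281) and -0.60 (SE 0.0414). Tpx2 had 67.7, 66.6 and 70.4 CPM in OVA tumor cells and 102, 101 and 99.0 CPM in B16-F10 tumor cells, without overlap. The kinesins of the spindle, Kif11, which pushes the poles apart, Kif2c, which removes faulty attachments by taking microtubules apart, and Kif4, which organises chromosome arms, changed by -0.44, -0.59 and -0.47 on the log2 scale. Of the 3 mitotic kinases, Aurka, the kinase of the spindle poles, fell by 0.86 on the log2 scale (SE 0.0438), with 27.0, 25.4 and 24.7 CPM against 46.1, 47.7 and 45.8 CPM. Plk1, the kinase of mitotic entry and cytokinesis, had 44.9, 42.9 and 42.0 CPM against 45.0, 42.9 and 40.1 CPM and did not pass the test, at a log2 change of 0.0145 (SE 0.0435, edgeR adjusted p = 0.766); Nek2 fell by 0.17. The groups overlapped for Plk1 and did not for Aurka.

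In the checkpoint and APC/C group, 5 of 6 fell, from -0.84 for Bub1 and -0.71 for Bub1b, both kinetochore proteins that hold back anaphase, through -0.25 for the APC/C's ubiquitin-conjugating enzyme Ube2c and -0.17 for the checkpoint kinase Ttk, to -0.13 for Mad2l1, which sequesters CDC20 (log2 changes). Cdc20, the activator of the APC/C, was the exception, with 47.6, 44.7 and 46.5 CPM in OVA tumor cells, against 47.3, 44.2 and 44.0 CPM in B16-F10 tumor cells, and did not pass the test at 0.0318 (SE 0.0399). The chromosomal passenger genes, which correct faulty attachments and guide cytokinesis, all fell, Aurkb by 0.32, Cdca8 by 0.21 and Birc5 (survivin) by 0.15 on the log2 scale; the call of Birc5 was lost with DESeq2, at -0.11. Aurkb had 42.0, 42.3 and 42.5 CPM against 52.2, 53.1 and 51.7 CPM, and Birc5 38.9, 40.8 and 39.7 CPM against 44.1, 43.6 and 43.3 CPM, with no overlap in either gene. All 6 midzone and cytokinesis genes fell, with log2 changes of -0.27 for Prc1, which bundles the central spindle, -0.30 and -0.15 for the midzone kinesins Kif20a and Kif23, -0.44 for Racgap1, -0.20 for Ect2, which activates RhoA at the cleavage furrow, and -0.25 for the furrow scaffold Anln.

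**Figure D2:**
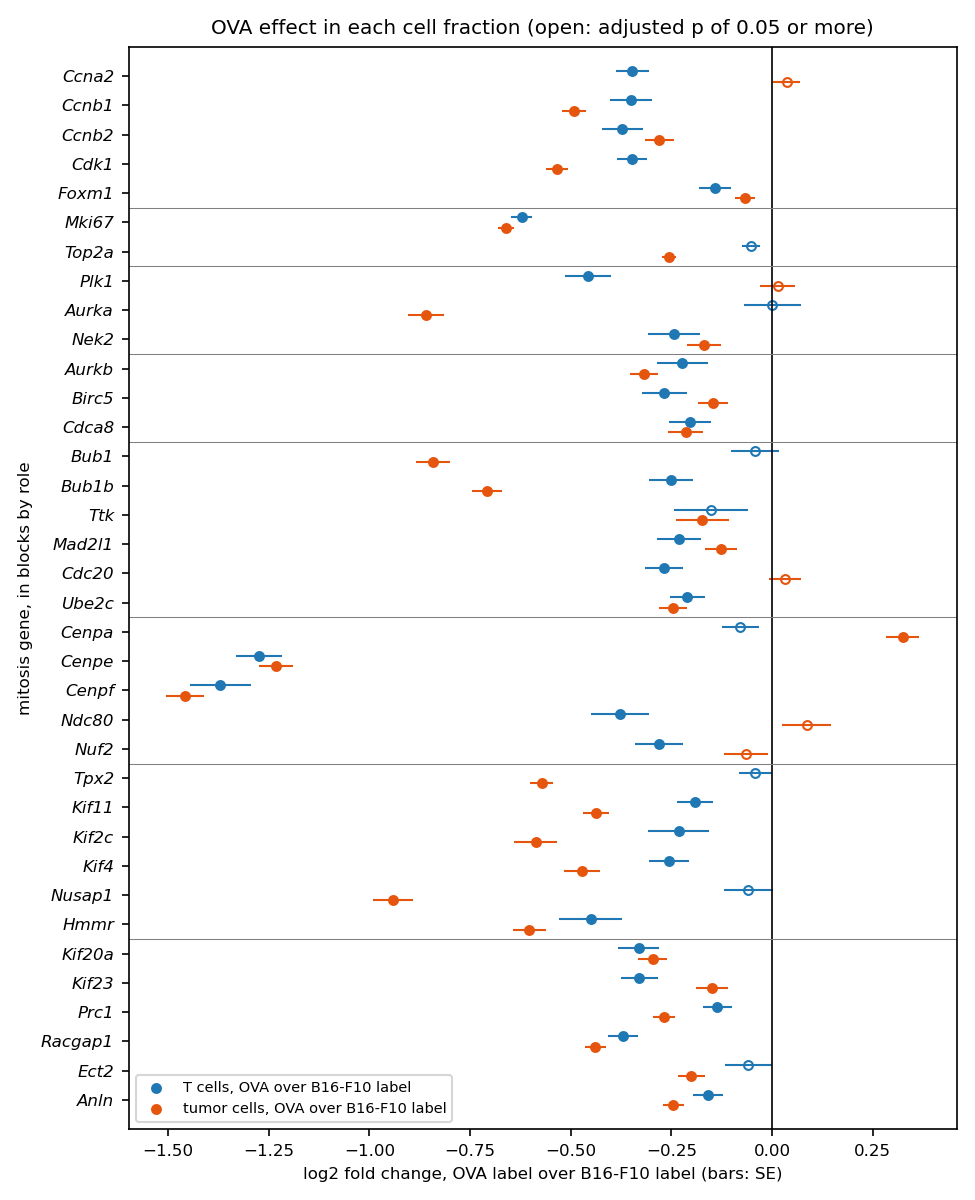
Points are log2 fold changes, OVA over B16-F10 label, of each mitosis gene in T cells and in tumor cells with TMM scaling, bars are standard errors, and open points did not pass the test. Cenpf and Cenpe are lowest in both; in tumor cells 30 points are called lower and 1 higher, while melanoma marker scaling put 34 higher and 2 lower.

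In OVA T cells, 28 of the 36 genes were lower than in B16-F10 T cells and none was higher, with edgeR. With TMM, 23 genes were lower in both fractions, 82.1% of the T cell list, where 83.3% of the 36 were lower in tumor cells, and 76.7% of the tumor cell list, where 77.8% of the 36 were lower in T cells; with melanoma marker scaling 2 genes were lower in tumor cells. Of all 16536 genes tested, 22.4% were lower and 23.7% higher. The median of the 36 was -0.25, against -0.00741 for all genes. Scaling to 20 T cell markers shifted all genes by only 0.0178, so it could change little. It left 28 lower with a median of -0.23. No member was higher at an unadjusted p under 0.05 either, and DESeq2 and limma-voom also called none higher. Beside this, 8 of 20 T cell markers were higher and 7 lower, and they summed to 1361 to 1371 CPM in OVA T cells, against 1372 to 1385 CPM in B16-F10 T cells, and endothelial markers to 11102 to 11165 CPM against 11398 to 11526 CPM. Melanoma markers summed to 117 to 124 CPM against 254 to 261 CPM, with 10 of 11 tested lower and 1 higher. The 10 neutrophil markers summed to 91.7 to 96.1 CPM against 50.6 to 53.2 CPM, with 6 of 8 tested higher and none lower, and the 14 fibroblast markers to 6555 to 6658 CPM against 6949 to 7075 CPM, with 10 lower and 1 higher. Macrophage markers, 18 in all, summed to 1032 to 1036 CPM against 988 to 990 CPM, with 11 lower and 3 higher. Whether the mitosis transcripts of this fraction came from T cells or from other cells in it was not tested.

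Mki67 had 109.7, 104 and 111 CPM in OVA T cells, against 167, 164 and 169 CPM in B16-F10 T cells, a log2 change of -0.62 (SE 0.0260, edgeR adjusted p = 4.09e-17) with no overlap. Cenpf had 9.77, 11.6 and 9.83 CPM against 26.5, 28.2 and 24.5 CPM, a log2 change of -1.37 (SE 0.0752, edgeR adjusted p = 1.57e-14). For Cenpe the libraries held 14.8, 15.0 and 14.7 CPM against 36.1, 35.99 and 35.03 CPM, a log2 change of -1.27 (SE 0.0562, edgeR adjusted p = 1.35e-16). As in tumor cells, Cenpf and Cenpe alone passed the test against 2-fold, which 0.931% of all genes passed downwards. All 5 genes of the cyclin and CDK1 group fell, with a median of -0.35. Ccnb1 had 33.4, 29.6 and 31.6 CPM in OVA T cells and 39.1, 40.1 and 41.8 CPM in B16-F10 T cells, and Cdk1 had 58.4, 61.4 and 58.0 CPM and 73.7, 77.7 and 73.4 CPM. Foxm1 fell by 0.14 on the log2 scale (SE 0.0399), with 54.6, 55.9 and 57.6 CPM against 60.8, 64.5 and 59.3 CPM.

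Plk1 and Ndc80, which did not pass the test in tumor cells, fell here. Plk1 had 22.5, 21.3 and 21.7 CPM in OVA T cells, against 28.6, 30.1 and 31.3 CPM in B16-F10 T cells, a log2 change of -0.46 (SE 0.0562, edgeR adjusted p = 1.33e-07), and Ndc80 had 13.9999, 13.3 and 12.6 CPM against 17.1, 17.7 and 16.9 CPM, a log2 change of -0.38 (SE 0.0720). Cdc20 had 38.9, 36.8 and 36.7 CPM against 43.3, 46.0 and 46.0 CPM, a log2 change of -0.27 (SE 0.0467), and Ccna2 and Nuf2 also fell. The chromosomal passenger genes Aurkb and Birc5 changed on the log2 scale by -0.22 (SE 0.0630) and -0.27 (SE 0.0560). Aurkb had 20.1, 22.2 and 20.7 CPM in OVA T cells and 25.8, 22.5 and 24.5 CPM in B16-F10 T cells, and Birc5 had 22.4, 22.4 and 21.2 CPM and 26.1, 26.7 and 26.3 CPM in those groups, with no overlap in either. Of the spindle genes 4 of 6 fell, led by Hmmr, with 13.0, 16.2 and 13.2 CPM against 19.4, 19.3 and 18.4 CPM and a log2 change of -0.45 (SE 0.0778), and of the midzone genes 5 of 6, between -0.37 for Racgap1 and -0.14 for Prc1. In the checkpoint group Bub1b, Cdc20, Mad2l1 and Ube2c fell. The 8 genes that did not pass were Aurka, Bub1, Cenpa, Ect2, Nusap1, Top2a, Tpx2 and Ttk, with log2 changes between -0.15 for Ttk and 0.000429 for Aurka. Tpx2 had 62.2, 68.5 and 62.6 CPM in OVA T cells, against 65.1, 68.4 and 63.6 CPM in B16-F10 T cells. Aurka had 15.7, 15.9 and 16.8 CPM against 15.1, 16.3 and 17.1 CPM in the same groups, Nusap1 21.5, 22.3 and 22.3 CPM against 23.8, 21.0 and 23.8 CPM and Top2a 201, 203 and 207 CPM against 208, 206 and 218 CPM. The groups overlapped for each of these 4.

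The OVA effects of the 2 fractions were then set against each other gene by gene in 1 model over 12 libraries, which tests the difference itself under TMM scaling. The difference, the effect in T cells minus that in tumor cells, was positive for 12 of the 36 and negative for 7, where 27.7% and 41.3% of all 18562 genes passed. With the tumor libraries scaled to melanoma markers, an alternative chosen after the data were seen, all genes shifted by -1.05. All 36 differences were then negative and none positive. The members' median lay 0.21 above that of all genes with TMM and 0.21 above it with that scaling. Scaling shifts all genes nearly alike, so this distance could hardly change and its steadiness tests nothing. With TMM it was 0.37 without a filter and 0.16 with a filter at 1 CPM in 3 libraries. The difference with TMM was largest for Nusap1, at 0.88 (SE 0.0770, edgeR adjusted p = 1.34e-10), Aurka, at 0.86 (SE 0.0805, edgeR adjusted p = 5.07e-10), and Bub1, at 0.80 (SE 0.0731, edgeR adjusted p = 3.28e-10). These genes fell in tumor cells and did not pass the test in T cells. The most negative were Plk1, at -0.47 (SE 0.0723, edgeR adjusted p = 2.21e-06), Ndc80, at -0.47 (SE 0.0943, edgeR adjusted p = 1.01e-04), and Cenpa, at -0.41 (SE 0.0668, edgeR adjusted p = 6.75e-06). For Cenpf, Cenpe and Mki67, with the largest falls in T cells, it did not pass the test, at 0.0833 (SE 0.0982), -0.0448 (SE 0.0689) and 0.0363 (SE 0.0322). Over the 36 genes the 2 effects had a Pearson r of 0.52 and a Spearman rho of 0.0314. Without Cenpf, Cenpe and Mki67, left out after their values were seen, r was -0.26 (n = 33). Across all 15603 genes tested in both fractions, r was 4.91e-05 and rho 0.00392. These are descriptions over genes that share 12 libraries, and genes are not independent replicates.

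**Figure D3:**
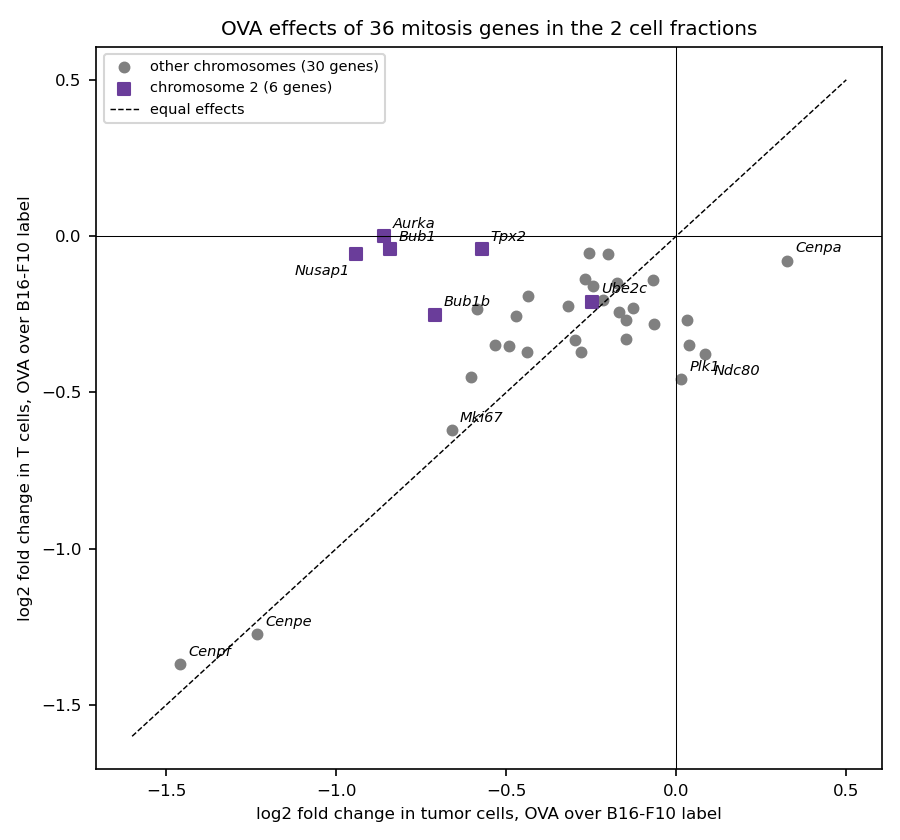
Each point is a mitosis gene, with its log2 fold change, OVA over B16-F10 label, in tumor cells on the x axis and in T cells on the y axis, TMM scaling; the dashed line marks equal effects. Cenpf, Cenpe and Mki67 lie far down near the line, and genes on chromosome 2, drawn in purple, lie on its upper left, Ube2c nearest to it; melanoma marker scaling would move every point right by about 1.06.

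Nusap1, Aurka, Bub1, Tpx2 and Bub1b, with the largest positive differences under TMM scaling, shared a chromosome, a pattern noticed after the values were seen. They lie on mouse chromosome 2, as does Ube2c, whose difference did not pass the test, at 0.0336 (SE 0.0539). In tumor cells the 6 had a median OVA effect of -0.78 (-0.94 to -0.25), against -0.25 for the other 30. In T cells it was -0.0503, against -0.27 for the other 30. All genes tested showed the same chromosome lowest: their median OVA effect in tumor cells ran from -0.28 on chromosome 2 to 0.42 on chromosome 7 over 19 autosomes, with -0.28 on chromosome 10 and -0.27 on chromosome 15, and in T cells only from -0.0251 to 0.0275. Set against the median of its own chromosome, 31 of the 36 were below it in tumor cells and 35 of the 36 in T cells. These are descriptions of gene positions, and no cause was tested.

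**Figure D4:**
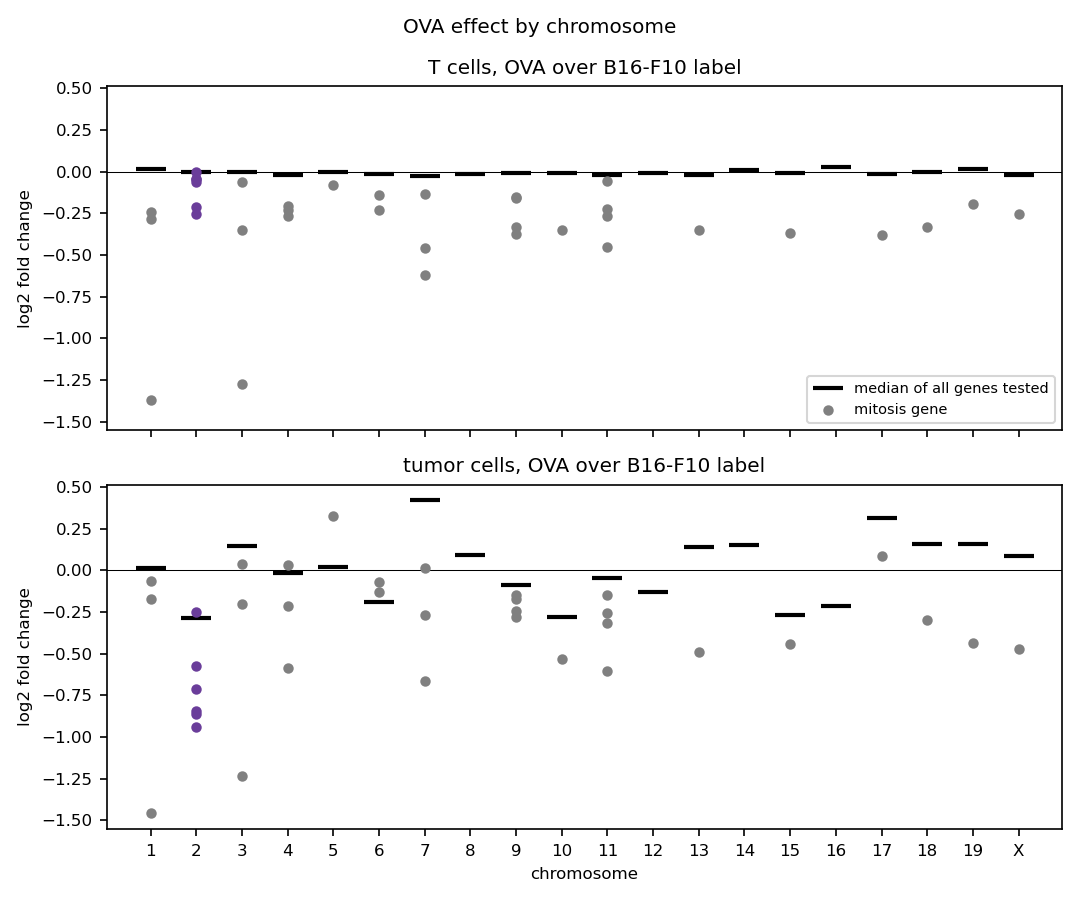
Black dashes are the median log2 fold change, OVA over B16-F10 label, of all genes tested on each chromosome, and points are mitosis genes, with those on chromosome 2 in purple; T cells are in the upper panel and tumor cells in the lower one, TMM scaling. Chromosome medians spread from -0.28 to 0.42 over autosomes in tumor cells and lie near 0 in T cells.

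The 3 genes with the largest falls in T cells, Cenpf, Cenpe and Mki67, also had the longest transcripts of the 36, at 11130, 7910 and 10061 bases for the longest coding transcript in GENCODE M21. Over the 36 genes, Spearman's rho between length and OVA effect was -0.41 in tumor cells and -0.0780 in T cells, and -0.25 and 0.20 without those 3. Over all tested genes with such a length, rho was 0.00547 over 13887 genes in tumor cells and 0.0279 over 13439 in T cells. The 842 genes at least as long as Cenpe had a median OVA effect of 0.0477 in tumor cells, and 810 such genes had 0.00498 in T cells. The values are descriptions, and no cause was tested.

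T cells had lower levels of most mitosis genes than the tumor cells of the same label. With the B16-F10 label, 30 of 36 were lower in T cells and Cenpa was higher, where 40.4% of all 18562 genes were lower and 45.5% higher, and the median was -0.70 against 0.12 for all genes. Aurka had the largest difference, with 15.1, 16.3 and 17.1 CPM in B16-F10 T cells and 46.1, 47.7 and 45.8 CPM in B16-F10 tumor cells, at a log2 change of -1.53 (SE 0.0536, edgeR adjusted p = 1.87e-19). Cenpf followed with 26.5, 28.2 and 24.5 CPM against 68.1, 71.3 and 65.3 CPM, at a log2 change of -1.37 (SE 0.0545). Cenpa had 65.5, 58.4 and 56.2 CPM against 38.5, 40.3 and 42.9 CPM, at a log2 change of 0.57 (SE 0.0490, edgeR adjusted p = 4.02e-11). Ccna2, Cdc20, Kif23, Ndc80 and Nuf2 did not pass the test, between -0.0761 for Ndc80 and -0.00417 for Cdc20. Past a change of 2-fold were Aurka, Aurkb, Bub1, Cenpf, Ect2 and Hmmr, 6 of 36, where 17.6% of all genes passed downwards.

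With the OVA label, 34 of 36 were lower in T cells and 2, Nusap1 and Cenpa, were higher, where 40.2% of all genes were lower and 37.3% higher. The median was -0.49, against -0.0273 for all genes. Cenpf was again far down, with 9.77, 11.6 and 9.83 CPM in OVA T cells and 26.2, 25.8 and 23.0 CPM in OVA tumor cells, at a log2 change of -1.28 (SE 0.0756, edgeR adjusted p = 2.94e-14), and it alone passed the test against 2-fold, which 12.5% of all genes passed downwards. Nusap1 had 21.5, 22.3 and 22.3 CPM against 17.7, 19.0 and 18.3 CPM, at a log2 change of 0.27 (SE 0.0563, edgeR adjusted p = 1.10e-04), and Cenpa 59.0, 56.2 and 56.4 CPM against 49.6, 52.4 and 51.5 CPM, at a log2 change of 0.17 (SE 0.0455, edgeR adjusted p = 0.00170); the call of Cenpa was lost with library totals and without a filter. Hmmr had 13.0, 16.2 and 13.2 CPM against 28.6, 29.2 and 28.8 CPM and Aurkb 20.1, 22.2 and 20.7 CPM against 42.0, 42.3 and 42.5 CPM, and they changed on the log2 scale by -1.04 (SE 0.0611) and -1.02 (SE 0.0476). Mki67 had 109.7, 104 and 111 CPM against 130.3, 128 and 130.5 CPM, at a log2 change of -0.26 (SE 0.0239). T cells and tumor cells also differed in isolation, by antibody beads in one and flow sorting in the other, which cannot be told apart from cell type. The fractions also differed in other cells. Endothelial markers summed to 11127 CPM in OVA T cells and 4482 CPM in OVA tumor cells, and to 11481 and 293 CPM with the B16-F10 label. Fibroblast markers summed to 6600 and 2601 CPM, and 7027 and 204 CPM. Macrophage markers summed to 1035 and 3422 CPM, and 989 and 472 CPM. The part of these cells in the differences was not tested.

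Other genes of mitosis and of the cell cycle were counted in the same way. Of 86 further mitosis genes tested (87 listed), 57 were lower and 15 higher in OVA tumor cells than in B16-F10 tumor cells (median -0.26), and 43 were lower and 5 higher in OVA T cells than in B16-F10 T cells (median -0.20). Of 30 DNA replication genes, which act in S phase before mitosis, 15 were lower and 7 higher in the tumor cell comparison (median -0.10), and 12 were lower and 2 higher in T cells (median -0.0892). Between T cells and tumor cells the replication genes were 26 lower and 2 higher with the B16-F10 label and 27 lower and 2 higher with the OVA label (medians -0.60 and -0.59). Of all genes tested, 37.4% were lower and 42% higher in the tumor cell comparison, and 22.4% and 23.7% in T cells. Between T cells and tumor cells, 40.4% were lower and 45.5% higher with the B16-F10 label, and 40.2% and 37.3% with the OVA label. The tumor cell directions are those of TMM scaling, as above.

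**Figure D5:**
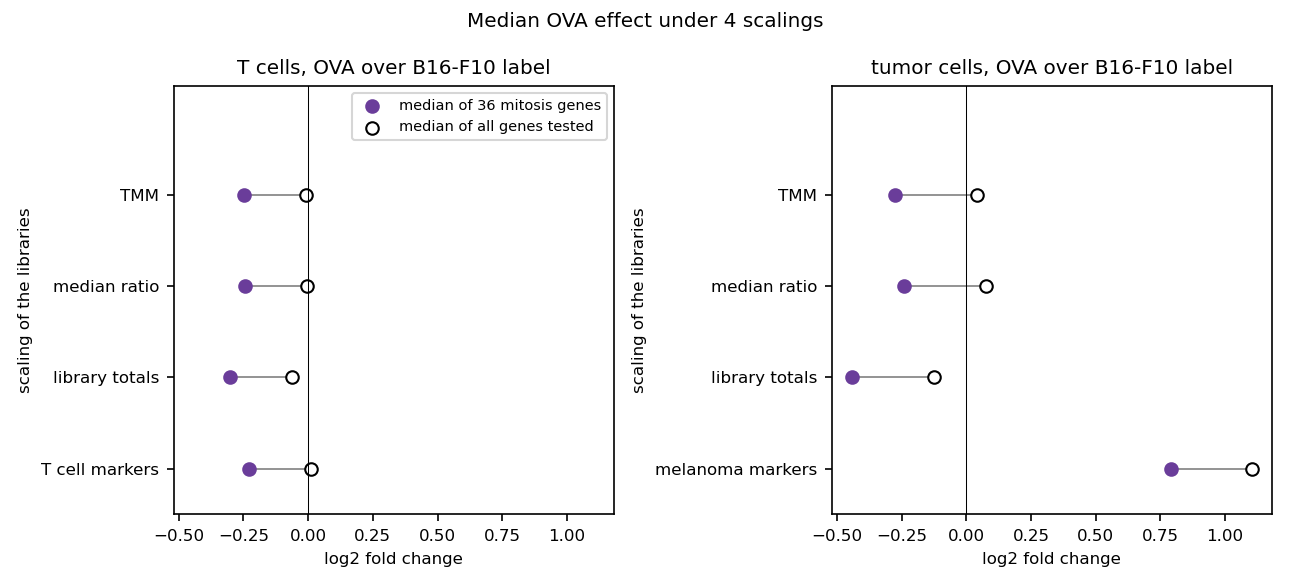
Filled points are the median log2 fold change of the 36 mitosis genes and open points that of all genes tested, OVA over B16-F10 label, under 4 ways of scaling the libraries, in T cells and in tumor cells. In tumor cells both medians move right together with melanoma marker scaling, to 0.79 and 1.10, and the distance between them is -0.32 with TMM and -0.31 with marker scaling. Because scaling shifts all genes nearly alike, this distance could hardly change, and its steadiness tests nothing.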

How the data were processed

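Poly-A RNA was sequenced from 12 libraries in 4 groups of 3, taken from the labels. The authors deposited 1 table of raw counts per gene, made with HISAT2 2.0.5 and featureCounts 1.6.0 on GRCm39, per the submitters' processing notes; strand setting, multimapping and annotation release are not given in the sources used here, so reads of near-identical copies or antisense partners may be shared. The kit named in the labels' protocols, NEBNext Ultra RNA, does not mark strand. No row named a non-gene. Counts were tested with edgeR 4.0.16 (R 4.3.3): genes passing filterByExpr, TMM scaling, quasi-likelihood F test and Benjamini-Hochberg adjustment over all genes tested, with a threshold of 0.05. OVA effects used the 6 libraries of a fraction; T cell against tumor cell comparisons and the difference of OVA effects used 12. Standard errors are the fold change over the square root of F. The scripts were tested on simulated data. Each gene's chromosome and transcript length came by gene identifier from GENCODE M21 (GRCm38), and promoters from RefSeq (GRCm38.p6); no GRCm39 sequence was used.

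The members and lists were chosen with earlier results of these data known. By a rule written with the design, per-library values were to be given for 10 anchor genes (Mki67, Top2a, Ccnb1, Cdk1, Foxm1, Plk1, Aurkb, Cdc20, Birc5 and Cenpf) and for the 2 highest and 2 lowest members of each comparison; genes that missed the threshold are named, and the rest are given by role. Libraries of a group differed by more than counting noise (chi-square per degree of freedom 1.51 to 1.77), so none was a copy of another; repeat preparations of 1 sample would not be told apart by this. Alternatives were other scalings and filters, DESeq2 1.42.0, limma 3.58.1 voom, a 2-fold test, other sets of libraries, a replicate block, each library left out and, added after the data were seen, melanoma marker scaling of the tumor libraries in the difference of OVA effects.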

Additional observations from a re-analysis of the deposited data

Results flagged for a closer look

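The OVA effect differed between T cells and tumor cells for 19 of the 36 genes, by edgeR's test of the difference at an adjusted p under 0.05 with TMM scaling. The log2 differences, the effect in T cells minus that in tumor cells, were positive for Nusap1 (0.88), Aurka (0.86), Bub1 (0.80), Tpx2 (0.53), Bub1b (0.45), Kif2c (0.35), Kif11 (0.24), Kif4 (0.21), Top2a (0.20), Cdk1 (0.18), Ccnb1 (0.14) and Prc1 (0.13). They were negative for Kif23 (-0.18), Nuf2 (-0.22), Cdc20 (-0.30), Ccna2 (-0.39), Cenpa (-0.41), Ndc80 (-0.47) and Plk1 (-0.47). Of all 18562 genes tested, 27.7% had a positive and 41.3% a negative difference. The signs rest on TMM: with the tumor libraries scaled to melanoma markers, all 36 differences were negative, with a median of -1.004, beside -1.22 for all genes.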

How the results depend on the processing

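Changes and medians are log2 values. They follow for tumor cells (OVA over B16-F10 label), T cells (OVA over B16-F10 label), T cells over tumor cells with the B16-F10 and with the OVA label, and the difference of the OVA effects, where given. Melanoma marker scaling shifted all genes by 1.06 in tumor cells and turned the direction: 34 higher, 2 lower, median 0.79, with Aurka 0.20, Aurkb 0.75, Birc5 0.92, Ccnb1 0.57, Cdk1 0.53, Foxm1 1.00, Hmmr 0.46, Mki67 0.40, Nusap1 0.12, Top2a 0.81 and Tpx2 0.49. With the tumor libraries so scaled, an alternative chosen after the data were seen, 0 differences were positive and 36 negative, median -1.004, and signs turned for Aurka -0.20, Aurkb -0.96, Ccnb1 -0.92, Cdk1 -0.87, Cenpf -0.97, Hmmr -0.91, Mki67 -1.02, Nusap1 -0.18, Top2a -0.86 and Tpx2 -0.53. With library totals in place of TMM, all genes shifted by -0.17, -0.0565, -0.24, -0.13 and 0.11, and the members' medians were -0.44, -0.30, -0.94, -0.62 and 0.17. With the OVA label 1 gene was then higher in T cells, and 19 differences were positive. Signs turned for Cdc20 -0.14, Ndc80 -0.0819 and Plk1 -0.15 in tumor cells, Aurka -0.0562 in T cells, and Cenpe 0.0700 and Foxm1 0.0372 in the difference. Median-ratio size factors gave medians of -0.24, -0.64, -0.38 and 0.10 for all but T cells, and DESeq2 gave -0.24, -0.64, -0.39 and 0.10, and called 25, 27, 29 and 29 genes lower in tumor cells, T cells and T cells over tumor cells with each label; Cdc20 turned to 0.0535 and 0.0542 (B16-F10 label), Tpx2 to 0.0161 and 0.0191 (OVA label) and Cenpe to 0.00518 and 0.00528 (difference). In T cells Aurka, near 0, was -0.000275 with DESeq2, -0.000521 with a filter at 1 CPM in 3 libraries and -0.00292 with a replicate block. Without a filter the medians were -0.30, -0.75 and -0.56 (tumor cells, then T cells over tumor cells), 1 gene was higher in T cells with the OVA label, and Plk1 was -0.00904 in tumor cells. Fitting 6 libraries gave -0.66 and Cdc20 0.0344 with the B16-F10 label. Against 2-fold, 2, 2, 6 and 1 genes were lower and 0 higher, and 0 differences passed. The cause of these shifts was not tested.

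Leaving out each library in turn gave 29 to 30, 27 to 28, 30 to 32 and 32 to 34 lower, with medians from -0.29 to -0.27, -0.26 to -0.22, -0.72 to -0.69 and -0.51 to -0.48. Differences were 11 to 14 positive and 6 to 7 negative, with medians from 0.0358 to 0.0821. Foxm1 and Ttk (tumor cells), Aurkb, Foxm1 and Kif2c (T cells), Kif4, Tpx2 and Ube2c (OVA label) and Ccnb1 and Nuf2 (difference) lost the call without 1 library, and the uncalled Plk1 (-0.0352 to 0.0458), Aurka (-0.0493 to 0.0424) and Cdc20 (-0.0420 to 0.0253) changed sign. Same-numbered libraries did not deviate together (r from -0.105 to 0.051 over 12 pairs). Within groups, chi-square per degree of freedom was only 1.51 to 1.77, which leaves little shared deviation to detect. Whether equal numbers mark a shared mouse or batch therefore cannot be decided from r. With a replicate block 30, 29, 30 and 34 genes were lower and 12 and 7 differences passed.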

Other observations

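The 7 CDK inhibitor genes restrain cell cycle progress, mostly before S phase. In OVA tumor cells all 7 were higher than in B16-F10 tumor cells (median 0.45, TMM scaling), where 42% of all genes were higher, and in OVA T cells 2 were higher and 3 lower than in B16-F10 T cells (median -0.0278), where 23.7% of all genes were higher and 22.4% lower. Cdkn1a, which encodes the p21 inhibitor, averaged 366 ± 4.28 CPM in OVA tumor cells and 266 ± 4.34 CPM in B16-F10 tumor cells (SD, n = 3 each). It averaged 717 ± 15.8 CPM in OVA T cells and 479 ± 4.08 CPM in B16-F10 T cells (SD, n = 3 each). Its log2 fold changes, OVA over B16-F10 label, were 0.45 in tumor cells (SE 0.0169) and 0.58 in T cells (SE 0.0163). Cdkn1b, which encodes p27, went opposite ways, at 0.33 in tumor cells and -0.37 in T cells. Cdkn2a and Cdkn2b had 0 counts in B16-F10 tumor cells, and 46 and 159 counts over the 3 libraries of OVA tumor cells. In OVA T cells they had 238 and 514 counts, and in B16-F10 T cells 179 and 256. Cdkn1c had 1 count over the 3 libraries of B16-F10 tumor cells and 147 over those of OVA tumor cells. The endothelial sum was also higher in OVA tumor cells than in B16-F10 tumor cells. The part of other cells in the changes of the 7 genes was not tested.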
